A study of Mus musculus with 111 samples.

Results

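Gad1, Gad2, Slc32a1, Slc17a6 and Gal are the genes through which a neuron makes or packages GABA, glutamate and galanin, and their rows were followed through RNA-seq libraries of the mouse tuberomammillary nucleus (TMN). The 5 genes were taken by name from 54087 gene rows, by a rule that uses no measured value although earlier results of these data were known, and all 5 were present in every table. Gad1 and Gad2 encode the glutamate decarboxylases that make GABA, and Slc32a1 encodes VGAT, the transporter that loads GABA and glycine into synaptic vesicles. Slc17a6 encodes VGLUT2, the vesicular glutamate transporter typical of the hypothalamus and thalamus, and Gal encodes the precursor of galanin, a neuropeptide. The TMN lies in the posterior hypothalamus and holds the histamine neurons of the brain, which promote wakefulness. Many of these neurons also carry GABA-synthesising enzymes, and galanin is a known co-transmitter of some of them, whereas VGLUT2 marks excitatory cells of the surrounding hypothalamus.

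The tissue came from adult C57BL/6 mice (C57BL/6J in the study's methods) given 1 of 3 adeno-associated viruses (AAVs) in both TMN, expressing GFP alone from an empty vector, wild-type histone H3.3, or H3.3 with glutamine 5 replaced by alanine (Q5A), a position that can carry histamine or serotonin in the wild-type protein. All 3 vectors carried GFP, GFP guided the dissection, and polyadenylated RNA was sequenced at zeitgeber times ZT0, 4, 8, 12, 16 and 20, with ZT0 at lights on. There were 32 GFP, 39 H3.3 and 39 Q5A libraries from 3 cohorts, with 4 to 8 libraries for each virus at each ZT (18 groups), and GFP and H3.3 were pooled as 71 controls. At ZT4, the tables labelled Q5A replicates 2 and 3 of cohort 2 held identical counts (0 of 12541 genes compared differed), below any sampling noise, and entered as 1 sample. The cell types in which the vectors were active are not given in the sources used here, and all animals kept their own H3.3 genes.

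Gene rows held 673306 to 3375352 reads per library, with a median of 1474422.5, and took 3.49% to 5.63% of the uniquely placed reads. The counting took reads on the annotated strand only, from a kit that marks strand. Parpbp, which overlaps Pmch on the opposite strand, held a median of 18661 normalised counts (reads scaled by the median-of-ratios size factor of the library) against 68.2 for Pmch, the gene for melanin-concentrating hormone (MCH). A value below is therefore the count of a deposited row, which may hold reads from the strand opposite to the transcript. The rows of genes that define the tissue were read as a description, because with this limit they cannot check the tissue label. Hdc, which encodes the enzyme that makes histamine, had a median of 4 reads and was at 0 in 11 of 110 libraries. Slc18a2, the vesicular monoamine transporter, had a median of 90. Its exons overlap those of 1 gene on the opposite strand. The summed histaminergic markers (Hdc, Slc18a2, Maob and Hrh3) had a median of 116.2 normalised counts and reached 378.1, and the summed MCH and orexin markers of the neighbouring lateral hypothalamus ran from 0 to 759.9. In 3 libraries of cohort 1 (Q5A at ZT20 replicate 3, H3.3 at ZT12 replicate 1 and GFP at ZT12 replicate 3), the row RP23-355L10.3 held 15905, 13407 and 9085 normalised counts against a median of 189 over all libraries, the summed striatal markers were 1428, 941 and 854 against a median of 100.4, and the MCH and orexin markers were 9.20, 0 and 6.32 against a median of 113.0.

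On build GRCm38, Gad1 (ENSMUSG00000070880) lies on chromosome 2 at 70553072 to 70602014, plus strand, with 7639 bp of exon. Gad2 (ENSMUSG00000026787) is on the same chromosome and strand at 22622205 to 22693874, with 5876 bp. Slc32a1 (ENSMUSG00000037771) is at 158610767 to 158615748, also on the plus strand of chromosome 2, with 2797 bp of exon. Of these exonic bases, 697 bp are shared with the antisense gene Gm14205, which was not analysed here. Slc17a6 (ENSMUSG00000030500) is on chromosome 7 at 51622006 to 51671119, plus strand, with 5399 bp, and Gal (ENSMUSG00000024907) is on chromosome 19 at 3409915 to 3414544, minus strand, with 788 bp. Gad1os, annotated opposite Gad1, shares 0 bp of exon with it and had a median of 10 reads.

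Promoter windows are shown for the 3 GABA genes, whose rows moved together across libraries, and for Slc17a6, whose row did not move with them. Each is the 250 bases before the RefSeq start on GRCm38.p6, read 5′ to 3′ on the gene's strand, with matches to the searched motifs in capitals. They are chr2:70561879-70562128 for Gad1, chr2:22622077-22622326 for Gad2, chr2:158610508-158610757 for Slc32a1 and chr7:51621580-51621829 for Slc17a6, all on the plus strand. RefSeq starts differ from the gene spans given above: the Gad1 window lies inside its gene span, and the Gad2 window crosses the start of its own. Motif positions below hold for the RefSeq start only.
Gad1: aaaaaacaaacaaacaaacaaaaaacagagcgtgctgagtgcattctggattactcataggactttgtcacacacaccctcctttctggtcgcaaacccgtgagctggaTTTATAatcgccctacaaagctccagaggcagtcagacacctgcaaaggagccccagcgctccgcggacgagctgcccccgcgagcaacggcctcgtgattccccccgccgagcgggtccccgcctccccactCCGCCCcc
Gad2: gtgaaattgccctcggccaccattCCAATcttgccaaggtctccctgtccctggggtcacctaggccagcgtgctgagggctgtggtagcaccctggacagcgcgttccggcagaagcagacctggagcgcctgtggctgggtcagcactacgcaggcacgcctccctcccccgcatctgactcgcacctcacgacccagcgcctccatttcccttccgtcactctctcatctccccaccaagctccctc
Slc32a1: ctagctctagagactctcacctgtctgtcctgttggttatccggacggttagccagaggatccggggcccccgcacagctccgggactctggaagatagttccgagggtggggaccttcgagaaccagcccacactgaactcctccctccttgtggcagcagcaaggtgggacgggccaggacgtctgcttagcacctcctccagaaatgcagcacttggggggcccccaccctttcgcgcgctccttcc
Slc17a6: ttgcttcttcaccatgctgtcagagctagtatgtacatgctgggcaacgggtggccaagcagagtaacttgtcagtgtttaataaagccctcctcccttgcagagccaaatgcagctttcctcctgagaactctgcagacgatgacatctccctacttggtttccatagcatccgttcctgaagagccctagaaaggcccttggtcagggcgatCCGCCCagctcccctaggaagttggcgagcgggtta

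Both strands were searched for the E-box CACGTG, to which the CLOCK-BMAL1 dimer can bind, the cAMP response element TGACGTCA, the GC box GGGCGG, the TATA box TATAAA and the CCAAT box CCAAT. Of 32851 mouse promoter windows of the same length, 6.02% held this E-box, 1.55% the cAMP response element, 32.7% the GC box, 12.4% the TATA box and 33.8% the CCAAT box. The Gad1 window held a GC box at 8 to 3 bases before the start and a TATA box at 141 to 136 bases, both in reverse complement. Gad2 held a CCAAT box at 226 to 222 bases before its start, Slc17a6 a GC box in reverse complement at 36 to 31 bases, and Slc32a1 none of the 5 motifs. No matches overlapped, and the GC content was 58.0% for Gad1, 64.0% for Gad2, 62.4% for Slc32a1 and 53.2% for Slc17a6. RefSeq gave all 5 genes a window and Slc17a6 a second one, so 6 windows were searched, and the E-box and the cAMP response element matched in 0 of the 6.

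Slc32a1 was the most abundant of the 5 per exon length and Slc17a6 and Gal the least. The median over the 110 libraries was 28.3 normalised counts per kb of exon for Slc32a1, 12.1 for Gad2, 8.11 for Gad1, 4.96 for Gal and 4.32 for Slc17a6. Slc32a1 exceeded Gad1, Gad2 and Slc17a6 per kb in 110 of 110 libraries and Gal in 102. Gad2 stood above Gad1 in 95 libraries, and Gad1 above Slc17a6 in 90 but above Gal in only 69. Gal and Slc17a6 could not be ranked, with Gal the higher in 62 of 110. The ratio of Slc32a1 to Slc17a6 per kb had a median of 6.48 and ran from 1.13 to 71.4. The order is that of deposited rows divided by the merged length of all annotated exons, not of transcripts. Of the 5, only Slc32a1 shares exonic bases with a gene on the opposite strand (697 of 2797 bp, Gm14205). What that overlap adds to its row was not tested. These are also levels of bulk tissue, in which fewer cells of a type and less RNA per cell cannot be told apart.

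Before correction for length, Slc32a1 had 25.8 normalised counts in the lowest library, 79.0 in the median and 174.6 in the highest, with a mean of 80.6 ± 29.2 (SD, n = 110). For Gad2 the lowest was 16.7, the median 70.9 and the highest 206.7, with a mean of 78.5 ± 40.0. For Gad1 these were 26.6, 62.0 and 170.6, with a mean of 70.6 ± 31.4. All 3 GABA genes were thus read in every library, above 94.6% to 95.5% of all rows. The glutamate transporter Slc17a6 ran from 2.63 through a median of 23.3 to 110.7, with a mean of 27.1 ± 16.2, and stood above 89.8% of rows. Gal ran from 0 through 3.91 to 29.9, with a mean of 6.46 ± 6.55, and 19 of 110 libraries had no Gal read.

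Most of the spread lay between libraries of 1 group, not between groups. The coefficient of variation within groups of virus and ZT was 36.8% for Slc32a1, 43.9% for Gad1, 49.7% for Gad2, 55.9% for Slc17a6 and 99.7% for Gal. Counting error alone gives 10.7%, 11.4%, 10.7%, 18.2% and 36.5% for the same genes in that order. The 18 groups of virus and ZT took up 11.9% of the variance of Slc32a1, 14.3% for Gad1, 14.9% for Gad2, 17.3% for Gal and 20.7% for Slc17a6. These shares are not corrected for the number of groups. A part of each would arise without any effect of virus or time, and they do not measure such an effect. With medians of 58.5 reads for Gad1, 69.5 for Gad2, 72 for Slc32a1, 23 for Slc17a6 and 4 for Gal, the depth restricted Gal far more than the others. Cohort 3, with 8 libraries of H3.3 and Q5A only, had 131.4 ± 33.9 (SD, n = 8) for Slc32a1, against 78.1 ± 23.0 (SD, n = 78) in cohort 1 and 71.9 ± 30.5 (SD, n = 24) in cohort 2. Gad1 in the same order of cohorts, 3, 1 and 2, had means of 84.8, 70.8 and 65.2 and Slc17a6 20.2, 27.0 and 30.0.

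**Figure D1:**
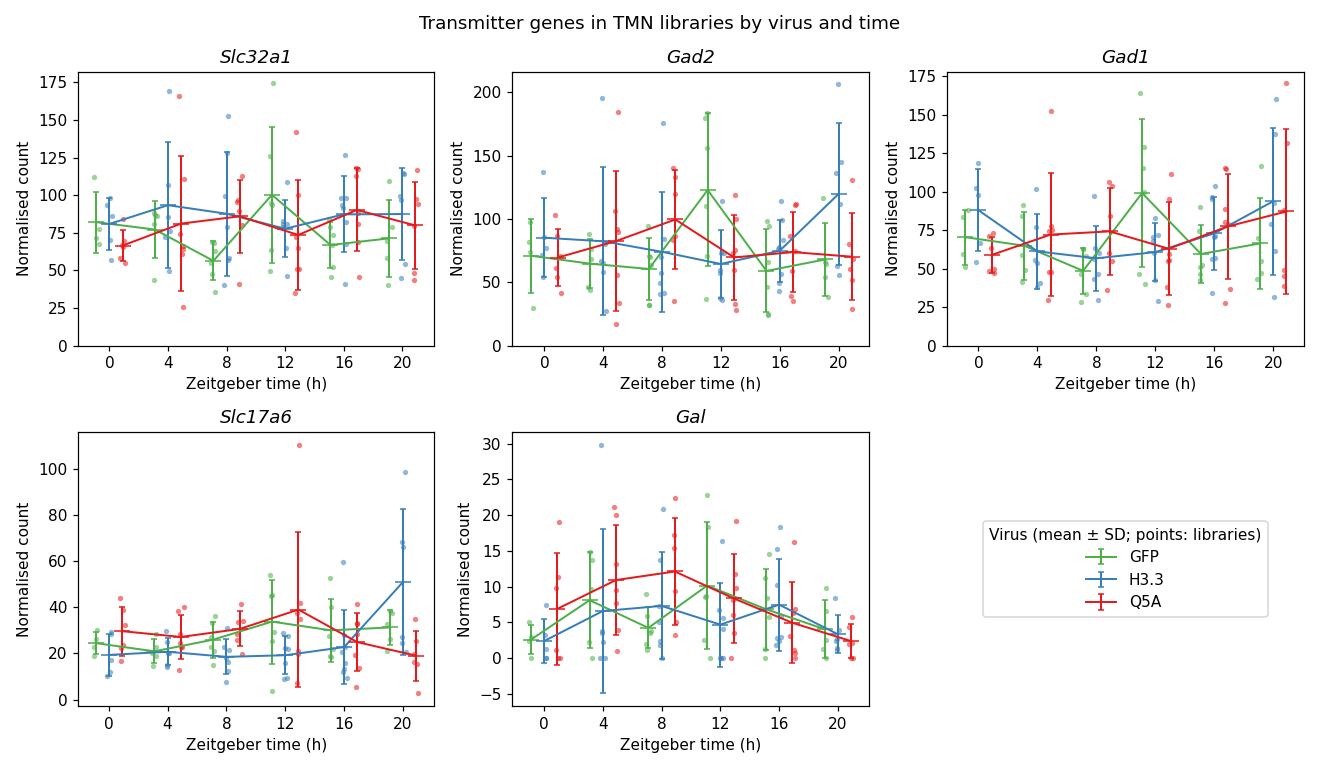
Normalised counts (y axis, from size-factor scaled reads) of the 5 transmitter genes against zeitgeber time (x axis, h) for GFP, H3.3 and Q5A libraries, with 1 point per library, group means as ticks joined by lines, SD as bars, and the viruses offset sideways. The groups overlap throughout, and the highest group means of Gad1 (99.1), Gad2 (122.9) and Slc32a1 (100.3) are those of GFP at ZT12. That group also holds the library with the highest share of uniquely placed reads in gene rows, 5.63%.

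To ask whether loss of glutamine 5 from H3.3 went with other levels of these genes, Q5A was compared with the pooled controls over all ZT in an edgeR quasi-likelihood fit with ZT as a factor, at an adjusted p under 0.01. None of the 5 transmitter genes changed. Of all rows, 2 of 13891 genes tested were called, 0.0144%, and 750 genes had an unadjusted p under 0.05, while for the transmitter genes that number was 0. For the enzyme Gad1, Q5A libraries ran from 26.6 through a median of 63.4 to 170.6 and controls from 28.1 through 61.4 to 164.3. The log2 difference of Q5A minus controls was 0.05 ± 0.12 (SE), with a 95% interval of -0.18 to 0.28 (edgeR adjusted p = 0.946). For Gad2 the Q5A median was 75.0 (16.7 to 184.3) and the control median 70.3 (24.2 to 206.7), a difference of -0.02 ± 0.14 with an interval of -0.29 to 0.25 (adjusted p = 0.984). The ranges of both enzymes lay almost on each other.

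The vesicular GABA transporter Slc32a1 had a Q5A median of 74.0 (25.8 to 166.3) and a control median of 79.0 (35.8 to 174.6). Its log2 difference was -0.03 ± 0.10, with an interval of -0.23 to 0.17 (edgeR adjusted p = 0.963), the narrowest of the 5. Slc17a6 had medians of 26.0 (2.63 to 110.7) and 22.8 (3.79 to 98.7), a difference of 0.16 ± 0.14 with an interval of -0.12 to 0.44 (adjusted p = 0.853). Gal, the peptide precursor, had a Q5A median of 6.03 (0 to 22.4) and a control median of 3.55 (0 to 29.9), with 6 of 39 and 13 of 71 libraries at 0. Its difference of 0.36 ± 0.27 had the widest interval, -0.17 to 0.89 (adjusted p = 0.847). The MCH and orexin markers, which moved with Gal across libraries (Spearman rho 0.47, n = 110), had median sums of 173.3 in Q5A and 93.7 in controls, with Pmch at 0 in 3 libraries and Hcrt in 12. Their part in the Gal values was not tested.

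The 2 control viruses were compared in the same way before they were pooled, and none of the 5 genes differed (0 of 13264 genes called, 0%; 431 at an unadjusted p under 0.05). H3.3 minus GFP was 0.06 ± 0.13 on the log2 scale for Gad1, 0.15 ± 0.16 for Gad2, 0.20 ± 0.12 for Slc32a1, -0.25 ± 0.16 for Slc17a6 and -0.17 ± 0.34 for Gal, each with an edgeR adjusted p of 1. The mean level of Slc32a1 was 75.4 ± 27.9 (SD, n = 32) with GFP and 85.8 ± 29.1 (SD, n = 39) with H3.3, and that of Slc17a6 28.1 ± 11.3 and 25.0 ± 18.5. No cohort 3 library carried GFP. Within cohort 1, where all viruses are represented, Slc32a1 had means of 74.2 ± 21.5 (SD, n = 28) with GFP, 83.4 ± 22.4 (SD, n = 24) with H3.3 and 77.5 ± 24.9 (SD, n = 26) with Q5A, which differed by less than the spread.

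**Figure D2:**
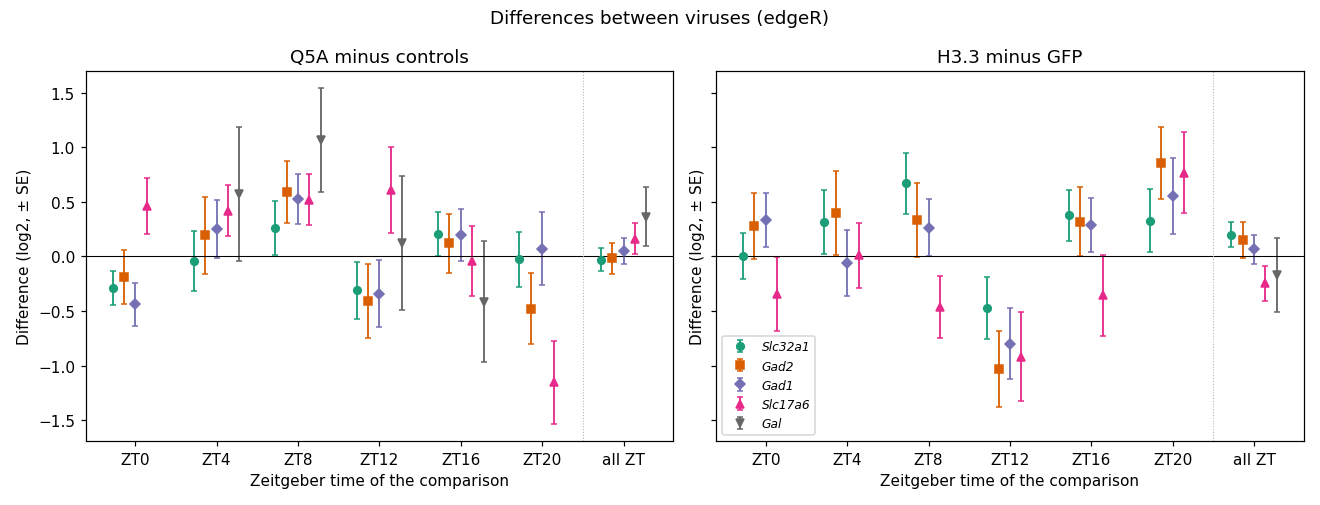
Log2 differences (y axis, edgeR estimate ± SE) of the 5 transmitter genes at each ZT and over all ZT (x axis), for Q5A minus controls on the left and H3.3 minus GFP on the right, with a gene absent where its reads were too few to test. All 5 genes are above 0 for Q5A at ZT8, the 4 tested genes are below 0 for H3.3 at ZT12, and no difference reached an adjusted p under 0.01.

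At single times the design had 6 or 7 Q5A libraries against 9 to 14 controls. None of the 5 genes passed an adjusted p of 0.01 at any ZT, and neither did any other gene: 0% of 10126 genes were called at ZT0, 0% of 10450 at ZT4, 0% of 10251 at ZT8, 0% of 10517 at ZT12, 0% of 10922 at ZT16 and 0% of 10008 at ZT20. Genes with an unadjusted p under 0.05 numbered 514, 1102, 1856, 296, 160 and 1123 at these times, and DESeq2 called 5 genes at ZT8, 1 at ZT20 and 0 at the others, with 0 of the 5 transmitter genes among them. Of the transmitter genes, 4 were among the 1856 at ZT8, 1 was among the 514 at ZT0 (Gad1) and 1 among the 1123 at ZT20 (Slc17a6). Gal had too few reads to be tested at ZT0 and ZT20.

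At ZT8, in the middle of the light phase, all 5 genes had higher fitted values in Q5A, with a median log2 difference of 0.52. The median over all genes tested was 0.02, which the normalisation holds near 0. The 5 genes are not separate observations, because the 3 GABA genes moved together across libraries (below). Many other genes moved at ZT8 too, with 1856 of 10251 at an unadjusted edgeR p under 0.05. Gad1 ran from 36.1 through 72.3 to 106.4 in Q5A and from 28.1 through 56.1 to 97.2 in controls, a log2 difference of 0.52 ± 0.23 (edgeR adjusted p = 0.242). Gad2 ran from 35.3 through 103.0 to 140.3 in Q5A and from 32.0 through 63.5 to 175.6 in controls, a difference of 0.59 ± 0.28 (adjusted p = 0.267). In both enzymes 1 Q5A library, the only one of cohort 2, was near the bottom of the control range and the other 5 were above the control median or close to it. Slc17a6 ran from 19.7 through 31.1 to 41.6 in Q5A and from 7.65 through 21.6 to 36.4 in controls, a difference of 0.52 ± 0.23 (adjusted p = 0.247). Gal ran from 3.17 through 12.4 to 22.4 in Q5A and from 0 through 3.85 to 20.8 in controls, 1.07 ± 0.48 on the log2 scale (adjusted p = 0.246). Every one of these pairs of groups overlapped. Within cohort 1 the adjusted p at ZT8 was 0.0772 for Gad1, 0.121 for Gad2 and 0.112 for Gal, again above the threshold.

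At ZT20 the difference of Slc17a6 was the farthest from 0 of any member with Q5A. The 5 GFP libraries had 26.3, 38.6, 33.0, 37.5 and 21.05 normalised counts of Slc17a6, the 6 H3.3 libraries ran from 20.8 through a median of 46.8 to 98.7, and the 6 Q5A libraries from 2.63 through 17.97 to 34.9. Of the H3.3 libraries, 3 stood at 66.3 or more, above all GFP and Q5A libraries, while 2 of the other 3 lay among the GFP values and 1, at 20.8, just below them, and Q5A overlapped with both controls. Q5A minus controls was -1.15 ± 0.38 on the log2 scale, with an interval of -1.90 to -0.41 (edgeR adjusted p = 0.396). The lowest Q5A library is 1 of the 3 with high striatal markers, and over 11 alternative analyses the difference ran from -1.58 to -0.90 with an adjusted p from 0.113 to 0.933. At ZT0 Gad1 ran from 47.4 through 56.7 to 73.0 in Q5A and from 51.3 through 83.3 to 118.5 in controls, a difference of -0.44 ± 0.20 (adjusted p = 0.907).

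Between the control viruses at single times, 0% of genes passed at ZT0 (of 9008), ZT4 (of 9074), ZT8 (of 9125), ZT12 (of 9774), ZT16 (of 9883) and ZT20 (of 9323), with 495, 102, 609, 2877, 246 and 1247 genes at an unadjusted p under 0.05. DESeq2 called 50 genes at ZT12, 1 each at ZT0, ZT16 and ZT20 and 0 at ZT4 and ZT8, with 0 transmitter genes among them. Gal had too few reads to be tested at each of these. The largest differences of the GABA enzymes were between GFP and H3.3 at ZT12, at lights off, where 3 of the 4 tested transmitter genes were among the 2877. These groups also differed as libraries. Gene rows took 3.55% to 5.63% of the uniquely placed reads with GFP and 3.49% to 4.13% with H3.3. Size factors ran from 0.79 to 2.72 and from 0.69 to 1.08. The part of library quality in the differences was not tested. The 6 GFP libraries ran from 37.0 through a median of 133.1 to 183.5 for Gad2, and the 7 H3.3 libraries from 36.4 through 59.4 to 114.5. Among the GFP libraries 3 had at least 156.3 and thus exceeded every H3.3 library, and the lowest was at the bottom of the H3.3 range. H3.3 minus GFP was -1.03 ± 0.35 for Gad2, -0.80 ± 0.32 for Gad1, -0.47 ± 0.28 for Slc32a1 and -0.92 ± 0.41 for Slc17a6 on the log2 scale (edgeR adjusted p = 0.0853, 0.119, 0.256 and 0.147). The median over all genes tested was -0.08, and the normalisation holds it near 0. Slc17a6 had 45.4, 25.2, 3.79, 54.3, 29.3 and 44.9 normalised counts in the GFP libraries, the lowest being 1 of the 3 with high striatal markers. Without those 3 libraries the adjusted p of Slc17a6 was 0.0262, still above 0.01.

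At ZT20 the sign was the other way: H3.3 minus GFP was 0.85 ± 0.33 for Gad2, 0.56 ± 0.35 for Gad1, 0.33 ± 0.29 for Slc32a1 and 0.77 ± 0.37 for Slc17a6 on the log2 scale (edgeR adjusted p = 0.333, 0.446, 0.560 and 0.374). Gad2 had 38.7, 64.8, 65.9, 116.4 and 54.5 normalised counts in the 5 GFP libraries and from 55.5 through 124.0 to 206.7 in the 6 H3.3 libraries. At ZT8 Slc32a1 ran from 35.8 through 58.9 to 68.9 in the GFP libraries and from 40.2 through 78.6 to 152.7 in the H3.3 libraries, a difference of 0.67 ± 0.28 (adjusted p = 0.700). The Q5A and control-virus comparisons share the GFP and H3.3 libraries, so their values are given side by side only.

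The day course of each gene was then tested by JTK_CYCLE, which scores the rank order of libraries against cosine templates with periods of 8 to 24 h and here calls a gene at a p under 0.05, adjusted over 20 templates but not over genes. None of the 5 transmitter genes was called in controls, Q5A, GFP or H3.3, where 16.8%, 4.54%, 13.5% and 7.65% of 13891 genes were called, and all 5 had a q of 1 in every arm. Gad1 had group means in controls between 52.9 ± 18.4 (SD, n = 13) at ZT8 and 81.3 ± 41.3 (SD, n = 11) at ZT20 (JTK adjusted p = 0.755). Slc32a1 had a 24 h cosine in pooled controls with a distance from mean to peak of 0.00196 on the log2 scale (edgeR adjusted p = 1). That does not make its course even, as its group means ran from 56.4 in GFP at ZT8 to 100.3 in GFP at ZT12. Slc17a6 lay between 20.8 ± 5.34 (SD, n = 11) at ZT4 and 42.0 ± 25.1 (SD, n = 11) at ZT20 in controls, and Gal between 2.46 ± 2.54 (SD, n = 9) at ZT0 and 7.27 ± 9.22 (SD, n = 11) at ZT4.

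Gal in Q5A came nearest to a call, with a period of 24 h and a peak at ZT8 (JTK adjusted p = 0.0665, q = 1). Its mean in Q5A was 6.88 ± 7.81 (SD, n = 6) at ZT0, 10.9 ± 7.65 (SD, n = 7) at ZT4, 12.1 ± 7.49 (SD, n = 6) at ZT8, 8.35 ± 6.20 (SD, n = 7) at ZT12, 4.93 ± 5.68 (SD, n = 7) at ZT16 and 2.37 ± 2.33 (SD, n = 6) at ZT20. The means were thus highest in the light phase and lowest late in the dark phase, on counts of few reads. Within cohort 1 Gal was called (JTK adjusted p = 0.0451, peak at ZT4), where 8.92% of genes were called in Q5A, and likewise without replicate 1 (0.0379), where the share was 3.17%. A 24 h cosine fit in edgeR within cohort 1 called it too (adjusted p = 0.0131), against 8.34% of 11355 genes. Whether Gal differs in course between Q5A and controls was tested by the interaction of arm with a 24 h cosine and sine, and it did not pass (edgeR adjusted p = 0.454).

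In H3.3, calls were made within cohort 1 alone. Gad1 was called there by JTK (adjusted p = 0.0490), against 10.4% of genes, and by a 24 h cosine fit in edgeR, with its peak late in the dark phase and 0.60 from mean to peak on the log2 scale (adjusted p = 0.0192), where 8.21% of 10562 genes were called. Slc17a6 was called in H3.3 cohort 1 by that cosine fit (adjusted p = 0.0260, peak at 20.6 h, 0.80 from mean to peak) and by a fit of ZT as a factor (0.000869), as was Gad1 by the latter (0.0265), where 19.2% of 10562 genes were called. With all cohorts the factor fit in H3.3 gave 0.0830 for Slc17a6 and 0.365 for Gad1, against 0.537% of 11366 genes called. In pooled controls Slc17a6 passed the factor fit narrowly, at 0.0499, where 5.5% of 13264 genes were called, and at 0.0107 in cohort 1, where the share was 12.7% of 12011. That call was also made without the 3 libraries of high striatal markers (0.0220, against 7.32% of genes) and without replicate 5 (0.0438, against 4.88%), and was lost without replicate 1, 2, 3 or 4. Its 24 h cosine in controls peaked at 18.5 h, in the dark phase, with 0.37 from mean to peak, and had an adjusted p of 0.0535. JTK made no call on Slc17a6 in cohort 1, with 0.146 in controls against 14.8% of genes called, nor did it call any of the 5 genes in GFP, where the share was 8.56%. In GFP without replicate 4, JTK called Gad2 (adjusted p = 0.0156, against 9.86% of genes) and the factor fit called Gad1, Gad2 and Slc32a1 (0.0366, 0.0412 and 0.0465, against 3.99% of 12459).

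A difference in course between arms was not found for any of the 5 genes. Between Q5A and controls 0.122% of 13891 genes passed the interaction test at an adjusted p under 0.05, and Slc17a6 had the smallest p of the 5 (edgeR adjusted p = 0.260, unadjusted 0.00674). The share depended on the libraries used: within cohort 1 alone 777 of 12640 genes passed, none of the 5 among them. Between H3.3 and GFP 0.0151% of 13264 genes passed, and Gad2 (adjusted p = 0.333) and Slc17a6 (0.352) had the smallest. An effect that passed in 1 arm and not in another is thus not shown to differ between them.

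The 3 GABA genes moved together from library to library. With the mean of each virus and ZT group taken out of log2(normalised count + 1), Gad1 and Gad2 had a Pearson r of 0.76 and a Spearman rho of 0.77 (n = 110 libraries, permutation within groups, p = 1e-05, the smallest that 100000 resamples can give). For Gad1 with Slc32a1 r was 0.69 and rho 0.68, and for Gad2 with Slc32a1 r was 0.69 and rho 0.71, with the same permutation p. Each of the 3 had a Benjamini-Hochberg adjusted p of 3.33e-05 over the 10 pairs of members. Without the 2 libraries farthest from the median of the first gene r was 0.76, 0.69 and 0.70. Within cohort 1 (n = 78) r was 0.75, 0.68 and 0.82, and within the cohort 2 libraries that shared a group with another of that cohort (n = 18) 0.77, 0.88 and 0.56, while cohort 3 had too few libraries per group. The relation of the GABA genes was thus present within both cohorts that could be examined.

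VGLUT2 showed no positive relation to the GABA genes. Slc17a6 had an r of -0.06 with Gad1 and -0.01 with Gad2, with permutation p values of 0.605 and 0.960, and rho was -0.01 and 0.00401. Within single cohorts these r values were lower. In cohort 1 they were -0.24 and -0.17 (n = 78, permutation adjusted p = 0.176 and 0.236), and in cohort 2 -0.44 and -0.21 (n = 18, not tested). Slc17a6 with Slc32a1 had an r of -0.27 and a rho of -0.27 (n = 110, permutation p = 0.0145, adjusted 0.0290). Without the 2 farthest libraries r was -0.31. In cohort 1 the r of this pair was -0.28 (n = 78, permutation adjusted p = 0.0552) and in cohort 2 -0.65 (n = 18). The call was lost without replicate 1, at a nearly unmoved r of -0.26 (n = 92, permutation adjusted p = 0.0600), and without replicate 4, at an r of -0.23 (n = 92, permutation adjusted p = 0.0987). In the 3 libraries with high striatal markers Slc17a6 was 2.63, 8.70 and 3.79 and Gad1 was 131.4, 68.1 and 128.9. Without them r of Slc32a1 and Slc17a6 was -0.29.

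Over all libraries Gal stood between these. Its r was 0.32 with Gad2 (rho 0.32, permutation p = 0.00191, adjusted 0.00477), 0.21 with Gad1 (adjusted p = 0.0563), 0.19 with Slc32a1 (0.0734) and 0.21 with Slc17a6 (0.0563). In cohort 2 the r of Gal with Gad2 was -0.49 (n = 18), opposite in sign to the 0.37 of cohort 1 (n = 78), so the pooled value does not hold in both. With a median of 4 reads, Gal allows no firm reading of weak relations.

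**Figure D3:**
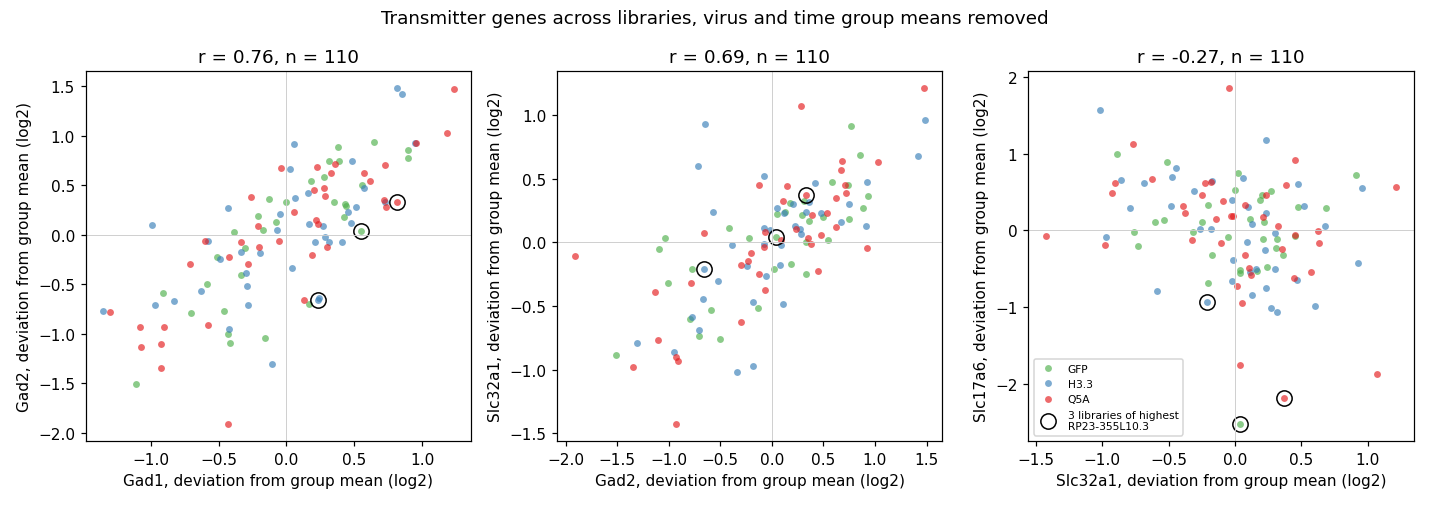
Each point is 1 of 110 libraries, plotted by the deviation of log2(normalised count + 1) from its virus and ZT group mean, for Gad2 against Gad1 (left), Slc32a1 against Gad2 (middle) and Slc17a6 against Slc32a1 (right), coloured by virus. The first 2 panels rise with r of 0.76 and 0.69 and the last falls with r of -0.27, and the ringed libraries are the 3 of highest RP23-355L10.3, of which 2 lie at the bottom for Slc17a6.

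Marker genes of cell types moved with some of these rows. Across libraries, with group means removed, the summed neuron markers (Snap25, Syt1, Rbfox3, Stmn2, Tubb3, Eno2 and Elavl4, all 7 above a median of 10 reads) had a rho of 0.53 with Gad1, 0.42 with Slc32a1, 0.40 with Gad2, 0.32 with Slc17a6 and -0.05 with Gal. With the neuron sum regressed out, an analysis added after the data were seen, r was 0.70 for Gad1 and Gad2, 0.58 for Gad1 and Slc32a1, and 0.62 for Gad2 and Slc32a1. For Slc17a6 it was -0.49 with Slc32a1, -0.32 with Gad1 and -0.15 with Gad2, against -0.27, -0.06 and -0.01 without that step. Slc17a6 had a rho of 0.41 with the summed astrocyte markers and -0.32 with the microglial ones, and Gad1 had 0.38 with the striatal ones, of which Adora2a was at 0 in 71 of 110 libraries. Gal had 0.47 with the MCH and orexin markers, -0.48 with the histaminergic ones and -0.43 with the pituitary ones, of which Cga was at 0 in 106 libraries, Prl in 104 and Gh in 89. The histaminergic and microglial sums were mostly 1 row each. Slc18a2 had a median of 87.9 normalised counts against 116.2 for its sum, and Hdc 4.06. Csf1r had 260.0 against 285.6 for the microglial sum. Exons of Slc18a2 and of Csf1r each overlap 1 gene on the opposite strand. The neuron sum is a stand-in of 7 rows, and regressing it out may leave part of the neuron content. The part of cell make-up in these relations was not tested.

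**Figure D4:**
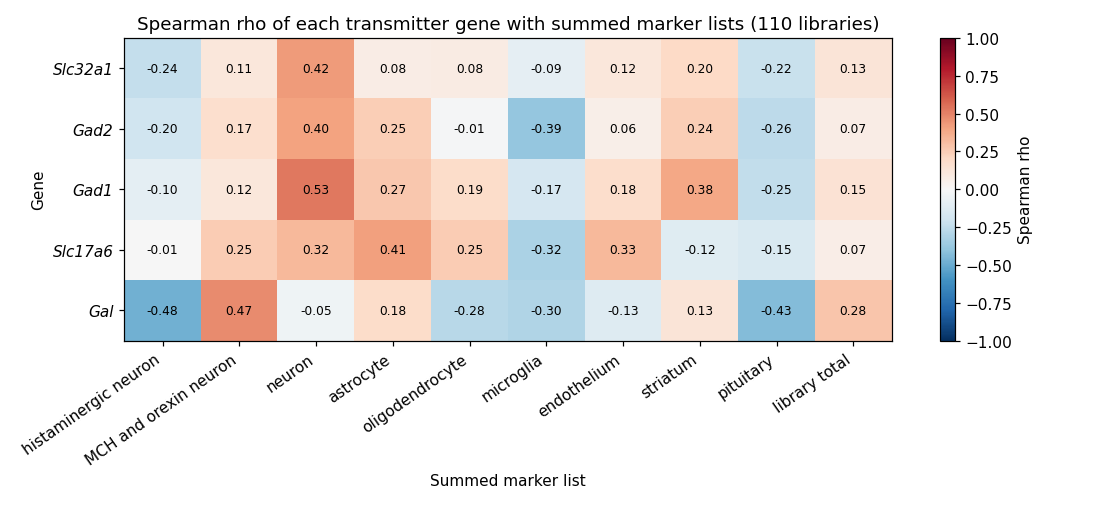
Spearman rho (colour and number) of each transmitter gene (rows) with summed marker lists and with the library total (columns) over 110 libraries, group means removed. The GABA genes are highest in the neuron column (0.40 to 0.53), whereas Gal has its extremes with the MCH and orexin (0.47) and histaminergic (-0.48) lists.

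The rows most like each gene were ranked by Spearman rho over the 110 libraries, as a description, among 8928 other rows with a median of at least 10 normalised counts (8929 for Gal). Gad1 and Gad2 each had the other at the top, with 0.77, and Slc32a1 at 0.68 and 0.71. Nrxn3, which encodes a presynaptic adhesion protein, was the one further row for both, with 0.66 for Gad1 and 0.77 for Gad2. Slc32a1 was followed most closely by Gad2 (0.71), Gad1 (0.68) and the clone-named row RP23-392P11.6 (0.59). Slc17a6 was most like Pcm1 (0.62), a protein of centriolar satellites, Sel1l (0.58), of endoplasmic reticulum protein degradation, and Rab3c (0.57), a GTPase of synaptic vesicles. Gal was most like Hap1 (0.71), the huntingtin-associated protein abundant in the hypothalamus, RP23-83I13.10 (0.69) and Cartpt (0.68), the precursor of another hypothalamic peptide. None of the 4 other transmitter genes was among the 3 rows most like Slc17a6 or Gal.

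The wider pathways were read from lists that include the 5 genes. Across GABA synthesis, transport and breakdown (8 of 9 genes tested), glutamate supply and transport (12 of 13), the galanin system (3 of 5), GABAergic transcription factors (5 of 9) and other transmitter markers (6 of 12), 0 genes passed for Q5A against controls over all ZT by edgeR, and the median log2 difference was 0.01, 0.10, 0.06, 0.00314 and 0.33, against 0.00189 over all genes tested. That last median is held near 0 by the normalisation. The smallest unadjusted p per list was that of Slc6a11, an astrocytic GABA transporter (0.166), Slc17a7, which encodes VGLUT1 (0.0896), Gal (0.181), Dlx6 (0.492) and Ddc, the aromatic amino acid decarboxylase (0.0134). No list had a call at any single ZT, between the control viruses or in the interaction tests. The untested rows were near 0: Slc17a8, which encodes VGLUT3, was at 0 in 84 of 110 libraries, the galanin-like peptide gene Galp in 108 and Galr3 in 70. Chat, of cholinergic neurons, had a median of 1 read and Dbh, of noradrenergic ones, 0.

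JTK called single genes around the 5 in each arm. Over all 13891 genes the share called was 16.8% for controls, 13.5% for GFP, 7.65% for H3.3 and 4.54% for Q5A. Among controls JTK called 1 of 8 tested genes of the GABA list, 3 of 12 for glutamate and 1 of 3 for galanin. For the transcription factors and the other transmitter markers it called 0 of 5 and 0 of 6. Whether any list held more calls than the share over all genes was not tested. Glul, the astrocytic glutamine synthetase that returns glutamate to neurons as glutamine, was called in controls (JTK adjusted p = 9.38e-05, q = 0.0120, peak at 18 h), Q5A (0.0274), GFP (0.0154) and H3.3 (0.00879), with the last 2 making up the controls. In the GABA list Slc6a12 was called in controls (0.0201), on a median of 3 reads. In the glutamate list the further calls were Slc17a7 (0.00673) and Slc38a2 (0.0279) in controls, Slc1a3 (0.00301) in GFP, and Slc1a1 (0.00710) and Slc1a2 (0.0147) in H3.3. The galanin receptor genes Galr1 and Galr2 were called in controls (0.0381) and in Q5A (0.00402), Slc6a3 in Q5A (0.0204) and Lhx6 in GFP (0.0304). Apart from Glul in controls, every one of these had a q above 0.05.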

How the data were processed

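RNA-seq was done on TMN tissue of AAV-injected mice, and 111 tables of raw read counts were deposited. The authors made these counts from stranded poly(A) libraries with STAR 2.7.11b on GRCm38 and HTSeq 2.0.5, over exons, by gene name and on the annotated strand; their DESeq2 results were not used here. Each table had 54087 gene rows and 5 rows of unassigned reads, which stayed out of totals and tests, and 18 tables with no matching sample were left out. Levels are reads scaled by a median-of-ratios size factor from 9428 genes read in every library.

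Virus differences were tested on the counts with edgeR 4.0.16 (quasi-likelihood F-test, TMM, filterByExpr with a minimum count of 10 and total of 15, limma 3.58.1, R 4.3.3), with ZT as a factor over all times and no further covariate, and Benjamini-Hochberg adjustment over all genes tested at 0.01. Rhythms were tested by a JTK_CYCLE implementation with exact null distributions in python 3.11.15 (scipy 1.17.1), at 0.05. Pair correlations used log2(normalised count + 1) with 100000 permutations within groups. Alternatives were DESeq2 1.42.0, its size factors, no filter, cohort 1 alone, cohort as a covariate, a replicate block, a 24 h cosine or ZT as a factor in place of JTK, the libraries without the 3 of highest RP23-355L10.3, and without the cohort 1 libraries of each replicate number in turn. The cosine and factor fits within cohort 1 and the removal of the neuron-marker sum were chosen after seeing the data. The edgeR and JTK steps were tested on simulated data with known changes. Per the study's methods each library is a separate, unpooled tissue sample. Intervals (95%, 1.96 SE) rest on the spread between libraries.

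The 5 genes and all gene lists were chosen with earlier results of these data known. The genes named outside the 5 were, per list and comparison, those called and the one of smallest p, and the 3 rows of highest Spearman rho with each of the 5 among rows with a median of at least 10 normalised counts. The result of 1 gene of the GABA list is not reported here.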

Additional observations from a re-analysis of the deposited data

Results flagged for a closer look

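The 5 genes were each examined in the 18 virus-by-ZT groups, and in 10 of these 90 sets of values, 11.1%, 1 library stood apart by Dixon's test at the 95% level, which chance gives in about 1 in 20 sets. All values are normalised counts. For the GABA genes, Gad1 was 152 in Q5A at ZT4 (cohort 3) against 29.9 to 78.0 in the other libraries, and Gad2 was 196 in H3.3 at ZT4 (cohort 3) against 27.4 to 80.3. Gad2 was also 176 in H3.3 at ZT8 (cohort 1) against 40.5 to 84.2. Slc32a1 had the one low library, 43.8 in GFP at ZT4 (cohort 1) against 80.8 to 88.4.

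Slc17a6 was 111 in Q5A at ZT12 (cohort 2) against 7.34 to 42.1, and 59.7 in H3.3 at ZT16 (cohort 2) against 9.32 to 28.1. Gal was 29.9 in H3.3 at ZT4 (cohort 3) against 0 to 3.79, in the same library as the high Gad2. In cohort 2 Gal was 16.4 in H3.3 at ZT12 against 0 to 6.66, 16.3 in Q5A at ZT16 against 0 to 6.88, and 8.39 in H3.3 at ZT20 against 1.18 to 3.86. The Q5A library high in Gal at ZT16 and the H3.3 library high in Slc17a6 at that time both come from cohort 2, and the cause was not tested.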

How the results depend on the processing

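None of the 5 genes was called in any virus comparison under any alternative run. The numbers of calls that moved were all of rhythm, from 0 of the 5 in the values reported. In controls the fit of ZT as a factor called 1 with all cohorts and 1 within cohort 1. In Q5A JTK within cohort 1 and the cosine fit within cohort 1 called 1 each, and leaving out replicates gave 0 to 1 (Gal, without replicate 1). In GFP leaving out replicates gave 0 to 1 (Gad2, JTK adjusted p = 0.0156 without replicate 4). In H3.3, cohort 1 alone called 1 by JTK, 2 by the cosine fit and 2 by the ZT factor.

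Some directions turned. Over all ZT, Q5A minus controls ran from -0.0785 to 0.0927 on the log2 scale for Gad2 and from -0.0676 to 0.00101 for Slc32a1 when replicates were left out, both turning without replicate 3, and H3.3 minus GFP for Gal from -0.38 to 0.0402, turning without replicate 2. At single times, over the alternatives, H3.3 minus GFP for Gad2 ran from -0.13 to 0.59 at ZT4 (0.40 in the values reported) and from -0.07 to 0.60 at ZT8 (0.34), and Q5A minus controls for Gad1 at ZT4 from -0.05 to 0.36 (0.25). Other single-time ranges crossed 0 too. Among them for Q5A minus controls were Gad2 at ZT0 (-0.46 to 0.0067), Slc32a1 at ZT4 (-0.21 to 0.086), Slc17a6 at ZT16 (-0.26 to 0.18) and Gad1 at ZT20 (-0.32 to 0.26). For H3.3 minus GFP they included Gad1 at ZT4 (-0.24 to 0.20). Among pairs, r of Gad1 with Slc17a6 was 0.0381 without the 3 libraries of highest RP23-355L10.3. When replicates were left out it ran from -0.0904 to 0.0293, and r of Gad2 with Slc17a6 from -0.0063 to 0.10. In cohort 1 alone these 2 pairs had an r of -0.24 and -0.17. Of the 5 pairs past an adjusted p of 0.05 for r, Gad2 with Gal fell to 0.23 and Slc32a1 with Slc17a6 to -0.23 without replicate 4. The causes were not tested. Over the whole table, Q5A against controls over all ZT called 2 genes in the values reported, 0 by DESeq2, 27 within cohort 1, 8 with the replicate block and 12 with cohort as a covariate. At single times, where edgeR called 0, the counts that moved most were H3.3 against GFP at ZT12 (50 by DESeq2, 26 without the filter), ZT0 (45 without the filter, 22 with the block) and ZT20 (44 and 20), and Q5A against controls at ZT0 (38 within cohort 1, 26 with the block) and ZT20 (31 without the filter). The interaction test of Q5A against controls called 17 genes in the values reported, 777 within cohort 1 and 98 without the filter. JTK calls in Q5A ran from 388 to 1239.

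Replicate numbers did not pair the libraries: deviations of same-numbered libraries had a mean r of 0.021 (778 pairs) against -0.0018 for other pairs (4928). With the replicate block 0 of the 5 genes were called in every virus comparison. Depth limits Gal above all, with a median of 4 reads, and Slc17a6, with 23.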
